A study of Mus musculus with 16 samples.

Results

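The comparison described here is the change inside the oxygen-induced retinopathy (OIR) arm from postnatal day 14 (P14) to postnatal day 17 (P17). It rests on 5 of the 16 whole-retina libraries of the series, 2 from OIR mice at P14 and 3 from OIR mice at P17, chosen by the age and treatment in their labels. All animals were wildtype C57BL/6J mice, and the labels name no allele or agent other than oxygen. OIR mice breathed 75% oxygen from P7 to P12 and room air (21%) thereafter, so that P14 lay 2 days and P17 lay 5 days after the return to room air. Control mice of the same strain stayed in 21% oxygen, and their 2 libraries at P14 and 3 libraries at P17 give the change with age in room air. Nothing in the labels says whether a library is 1 animal or a pool, so p-values measure the spread between libraries. Whole retina holds neurons, glia, vessels and immune cells together, and fewer cells of a type and less RNA per cell cannot be told apart in it.

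OIR is a mouse model of retinopathy of prematurity. High oxygen stops vessel growth and prunes the capillaries of the central retina, and after the return to room air the avascular retina lacks oxygen, stabilises hypoxia-inducible factors and releases vascular endothelial growth factor. Vessels then regrow, in part as tufts that break through the inner surface of the retina, and the days compared here run from the hypoxic phase to the phase in which tufts are usually most abundant.

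The 5 OIR libraries held between 26077663 and 41716971 counts and detected between 24016 and 24827 genes each. Several properties of the libraries changed with age in the OIR arm. Crystallins and other lens genes took 8.30%, 6.03% and 0.361% of all counts in the 3 OIR P17 libraries (95% Wilson interval of the first 8.29% to 8.31%, counting error only) against 0.00165% and 0.00138% at P14. In control retina they took 0.177% and 0.00551% at P14 and 0.035%, 0.629% and 0.482% at P17. The control P30 libraries held 5.50%, 8.38% and 5.35%, and the OIR P30 libraries 3.32%, 7.75% and 3.55%. Xist, which is transcribed from the inactive X chromosome of female cells, was at 114, 140 and 158 CPM (library-scaled counts, by TMM) in the P17 libraries and at 0.266 and 0.113 CPM in the P14 libraries, and summed Y-linked genes were at 136 and 146 CPM at P14 and at 0.143 CPM or less at P17, so sex and age cannot be told apart in this arm. The control libraries were not uniform either: Control P14 replicate 2 held Xist at 913 CPM and Y-linked genes at 0.227 CPM, while the other 4 control libraries of P14 and P17 held Xist at 0.157 CPM or less. The same library held 1350.0 CPM of pigment epithelium and choroid genes against 510.6 CPM in Control P14 replicate 1. Control changes and interactions rest in part on that library, and its part in them was not tested gene by gene. Corneal and ciliary body genes summed to 620 CPM in OIR P14 replicate 1 against 36.2 CPM in replicate 2, where the corneal keratin Krt12 stood at 147 and 0.255 CPM. Genes of rod phototransduction and the outer segment, which mark the main cell of the mouse retina, summed to between 64040 and 87280 CPM in all 5 libraries. The part of cornea in any single gene's change was not tested. For lens and sex, the summed lens or Y-linked level was added to the model as a covariate. Both levels separate the OIR P14 from the OIR P17 libraries without overlap. The slopes come from variation inside groups, and these fits cannot separate lens or sex from age in this arm. A lost call can come with a kept or a changed median. With the lens covariate the median log2 fold change of hypoxia-inducible genes was 0.37 (0.36 without it). That of endothelial markers was -0.27 (0.13 without it). Counts under those fits are given beside most gene groups.

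**Figure D1:**
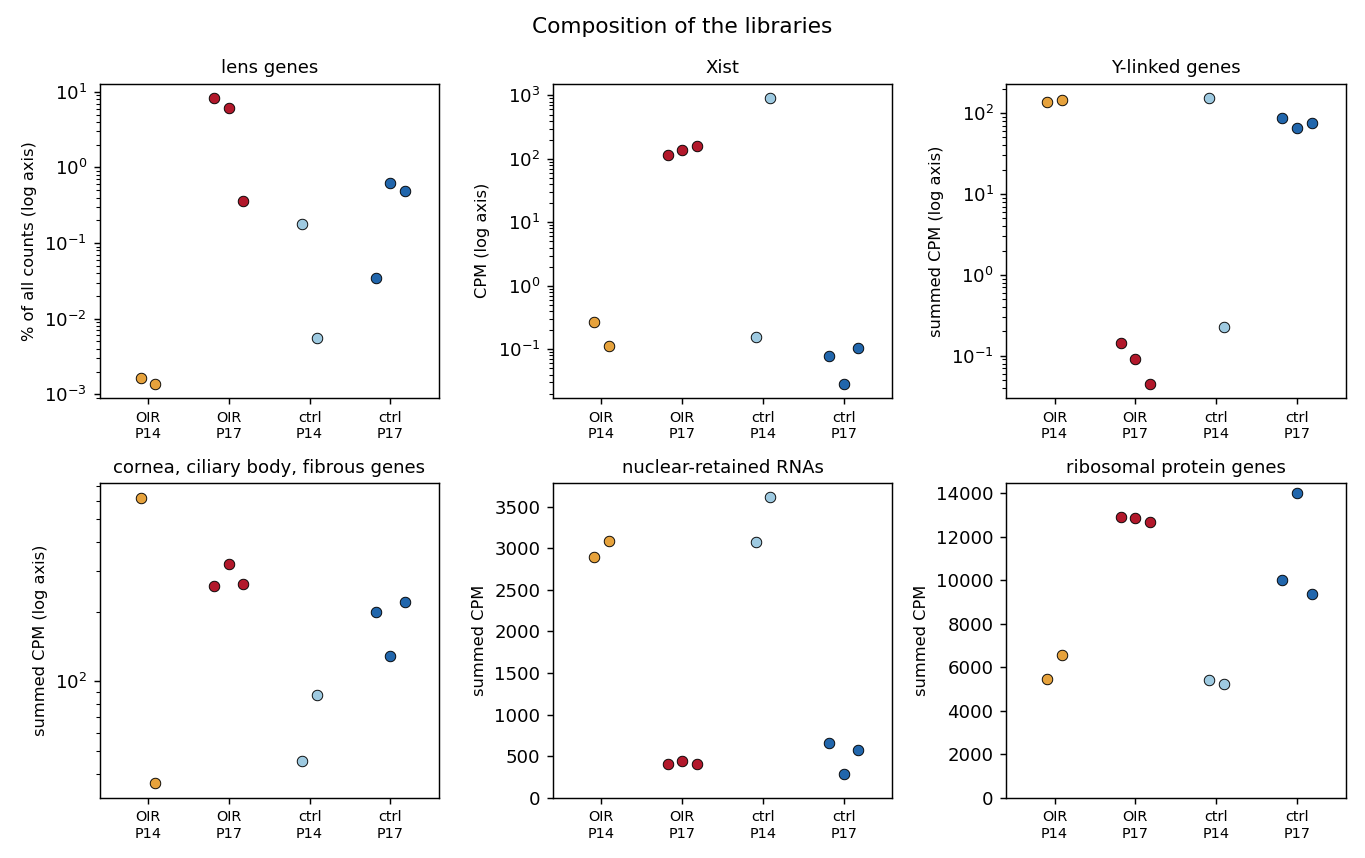
Each point is 1 library, in OIR and control retina at P14 and P17; the panels show the percent of counts in lens genes, the CPM of Xist, and the summed CPM of Y-linked, corneal and ciliary, nuclear-retained and ribosomal protein genes. Lens share, Xist and Y-linked genes separate the OIR P17 from the OIR P14 libraries. The nuclear-retained RNAs are lower and the ribosomal protein genes higher at P17 than at P14 in both arms, and both lists were written after values were seen.

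Retinal gene expression differed widely between the 2 ages. Of 19905 genes tested, 4412 (22.2%) were higher and 4653 (23.4%) were lower at P17 than at P14 in OIR retina (edgeR quasi-likelihood test, Benjamini-Hochberg adjusted p under 0.05), 45.5% in all. Of these, 1242 rose (6.24% of genes tested) and 1678 fell (8.43%) by more than 2-fold. In control retina 3643 genes (18.3%) were higher and 4355 (21.9%) were lower at P17. Of the genes higher in OIR, 2792 were also higher in control (63.28% of the OIR list and 76.64% of the control list), and of the genes lower in OIR 3511 were also lower in control (75.46% and 80.62%). Across the tested genes the 2 arms' fold changes had a Pearson r of 0.69 and a Spearman coefficient of 0.77, as a description, since genes are not independent and all libraries share one scaling. The difference between the 2 changes was tested as an interaction. No gene passed the adjusted threshold in either direction (smallest adjusted p = 0.080), while 958 genes (4.81%) had a more positive and 740 (3.72%) a more negative change in OIR at an unadjusted p under 0.05. DESeq2 called 125 and 52 genes for this difference, limma-voom 0 and 0. Where the text below gives an interaction p, it is unadjusted and its adjusted value did not pass. Counts of called genes in a list are to be read against the 22.2% higher and 23.4% lower of all genes in OIR.

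With library totals in place of TMM scaling, 3063 genes were called higher and 5593 lower in OIR, and the median fold change of all tested genes moved from 0.005 to -0.12 (log2), so small rises and falls depend on the scaling. Without OIR P14 replicate 1, 2927 genes were called higher, and without the 2 OIR P17 libraries richest in lens counts 2830 were called lower. With the lens covariate 512 and 773 genes were called, and with the Y-linked covariate 2336 and 2766.

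**Figure D2:**
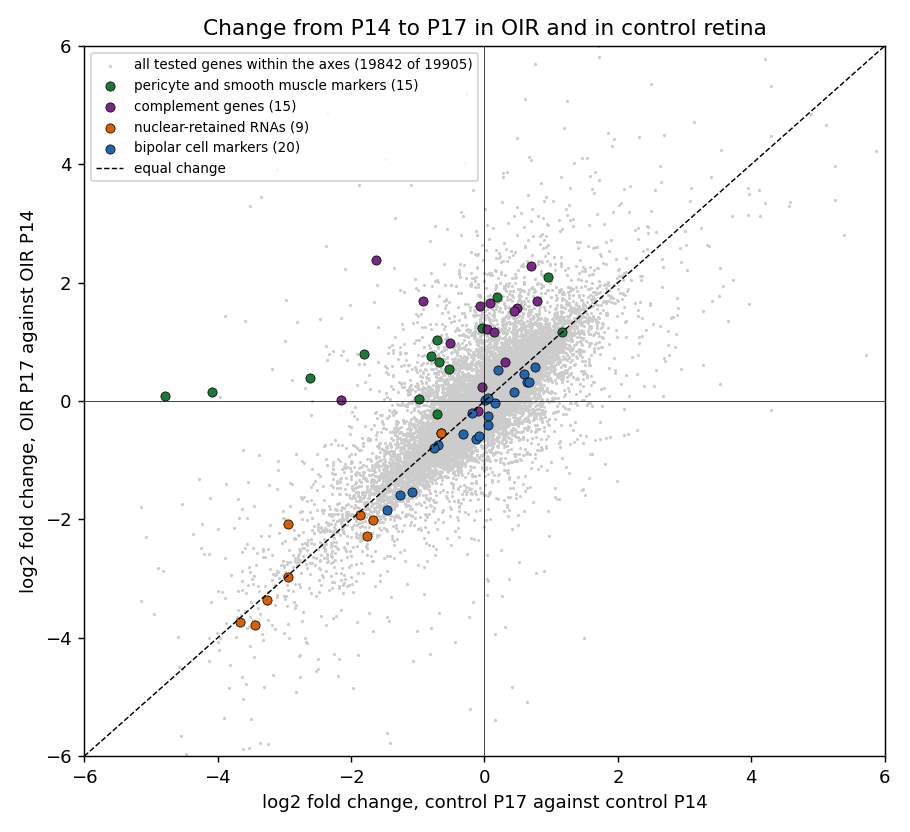
Each point is 1 of the 19842 of 19905 tested genes that lie within the axes; the horizontal axis is the log2 fold change from P14 to P17 in control retina, the vertical axis the same in OIR retina, and the dashed line marks equal change. Pericyte and complement genes lie mostly above the line, bipolar cell markers mostly on or below it, and nuclear-retained RNAs along it at the low end.

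Several of the largest falls were of RNAs listed as nuclear-retained, and these fell in control retina too. Where an RNA lay in the cell was not measured. Meg3, a maternally expressed long noncoding RNA, stood at 1008 and 1128 CPM at P14 and 77.7, 76.2 and 79.2 CPM at P17. Meg3 had a log2 fold change of -3.78 ± 0.405 (SE; edgeR adjusted p = 2.62e-05). Miat, another long noncoding RNA, fell from 104 and 117 CPM to 12.2, 10.7 and 9.34 CPM (log2 fold change -3.36, adjusted p = 1.25e-05). Leng8, annotated as a protein-coding gene, fell from 673 and 725 CPM to 49.4, 52.96 and 56.1 CPM (log2 fold change -3.73, adjusted p = 1.78e-06). The control changes of these 3 genes were -3.44, -3.27 and -3.66. All 9 members of a list of nuclear-retained RNAs, written after values were seen, fell in OIR and all 9 in control, from a summed 2896 and 3085 CPM to 406, 442 and 403 CPM in OIR. Of the 9, 1 fell with the lens covariate and 7 with the Y-linked covariate. At P30 the list summed to between 278.5 and 497.8 CPM in OIR and between 475.4 and 675 CPM in control. On this list, chosen after values were seen, the P14 libraries of both arms stand apart from those of both later ages. Age and any difference in RNA quality or preparation of the P14 libraries cannot be told apart here, and neither was tested. Collagen genes were also among the 15 largest falls: Col11a2 was at 34.5 and 24.7 CPM at P14 and 2.72, 1.73 and 2.05 CPM at P17, with a log2 fold change of -3.78 ± 0.31 (SE; edgeR adjusted p = 4.54e-07). Col7a1 fell from 31.00 and 30.1 CPM to 2.26, 2.36 and 2.84 CPM (log2 fold change -3.61, adjusted p = 0.000132). Their control changes were -3.19 and -3.65, and both falls were also called in control. Tgfbr3l, a gene of the transforming growth factor receptor family, also fell in both arms (log2 fold change -4.07 in OIR and -3.996 in control).

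Ribosomal protein genes went the other way, with 52 of 60 higher in OIR and 49 of 60 in control, at a median log2 fold change of 1.04 and 1.02; this list too was written after values were seen. The rises numbered 5 with the lens covariate and 45 with the Y-linked covariate. Over all tested genes with an annotated length, the median log2 fold change in OIR was 0.30 for transcripts under 1000 bases and -0.23 for those over 4000 bases. In control the medians were 0.30 and -0.23. The same limit on the P14 libraries holds for this trend, which bears on falls of long genes and rises of short ones. Among the 15 largest rises with a known name, Slc26a4, the anion exchanger pendrin, stood at 0.332 and 0 CPM at P14 and at 1.60, 3.49 and 1.51 CPM at P17. Because 1 P14 library held no read of it, its fitted fold change is no measured size. Rn7sk, a small nuclear RNA that holds back transcription elongation, was at 0.997 and 1.93 CPM at P14 and 9.07, 23.4 and 13.1 CPM at P17. Its control libraries held 1.33 and 0.278 CPM at P14 and 26.8, 9.28 and 21.3 CPM at P17. Crip1, a LIM domain protein, rose from 4.85 and 7.05 CPM to 67.8, 22.4 and 40.1 CPM (log2 fold change 2.86, adjusted p = 0.000707), with a control change of 2.57. The other 4 named rises given here, Gstm2, Folr1, Lrrc17 and Fbln1, passed the test but lost it without OIR P14 replicate 2 (Gstm2, Folr1, Fbln1) or replicate 1 (Lrrc17).

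More hypoxia-inducible genes were called higher than lower. Of 40 genes tested, 18 were higher (45%) and 5 lower (12.5%) at P17, against 22.2% and 23.4% of all genes. Their median log2 fold change was 0.36, against 0.005 for all genes, and in control retina 15 were higher and 5 lower, with a median of 0.38. Vegfa, the main endothelial growth factor, fell although it is on this list. Its level was 597 and 592 CPM at P14 and 347, 245 and 369 CPM at P17. Vegfa had a log2 fold change of -0.89 ± 0.16 (SE; edgeR adjusted p = 0.000385), and all 3 P17 libraries lay below both P14 libraries. In control retina it was at 254 and 277 CPM at P14 and 139.7, 126 and 132 CPM at P17, a log2 fold change of -1.001. The Vegfa level in OIR at P17 thus overlapped the control level at P14, and the interaction was 0.11 ± 0.24 (log2, SE), unadjusted p = 0.648. With the lens covariate the Vegfa change in OIR was -0.45 and did not pass (adjusted p = 0.461). Bnip3, which drives removal of mitochondria under low oxygen, was at 96.7 and 89.4 CPM at P14 and 209, 171 and 237 CPM at P17, with a log2 fold change of 1.15 ± 0.15 (SE; edgeR adjusted p = 1.28e-05), with 1.14 in control. Adm, which encodes the vasodilator peptide adrenomedullin, was at 8.94 and 8.92 CPM at P14 and 29.5, 12.8 and 33.2 CPM at P17. Adm had a log2 fold change of 1.496 ± 0.35 (SE; edgeR adjusted p = 0.0031). All 3 P17 libraries lay above both P14 libraries, and replicate 2 was the lowest of them. The Adm call was lost when the 5 OIR libraries of P14 and P17 were fitted alone (adjusted p = 0.089). Bhlhe40, a transcription factor induced by hypoxia, rose from 47.8 and 47.3 CPM to 88.6, 60.8 and 85.6 CPM (log2 fold change 0.72, adjusted p = 0.000223), and its interaction was 0.47 ± 0.18 (log2, SE), unadjusted p = 0.0157. Ndufa4l2, a hypoxia-induced mitochondrial protein, rose from 57.8 and 65.4 CPM to 118, 88.7 and 144 CPM (log2 fold change 0.92, adjusted p = 0.00548); without OIR P14 replicate 1 the adjusted p was 0.055. Egln3, an oxygen-sensing prolyl hydroxylase, was at 19.4 and 13.4 CPM at P14 and 22.1, 13.9 and 26.6 CPM at P17 and did not pass, with a log2 fold change of 0.34 ± 0.23 (SE; edgeR adjusted p = 0.236). It passed, as a rise, without OIR P17 replicate 2 (0.596, adjusted p = 0.0278) and without the 2 lens-rich libraries (0.73, adjusted p = 0.0353). Epo, the gene of erythropoietin, was at 1.56 CPM or less in every OIR library of P14 and P17 and did not pass (adjusted p = 0.277). The list's count of rises was 11 without OIR P14 replicate 2, 2 with the lens covariate and 7 with the Y-linked covariate.

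The letters of the hypoxia response element core, ACGTG or GCGTG, were looked for on both strands in the 250 bases before each RefSeq start (GRCm38.p6). They were present in 27 of the 32 list members with a window, and in 41.54% of the 27025 symbols that have one. Of these 27 genes, 11 rose and 3 fell, and of the 5 without the letters 1 was higher and 2 were lower. The windows of Adm and Bnip3 are printed 5′ to 3′ on the gene's strand as examples of a gene with the core in few and in many copies; capitals mark the core or its reverse complement. The Adm stretch is chr7:110627542-110627622 (plus strand), from 115 to 35 bases before the start, and the Bnip3 stretch is chr7:138909522-138909648 (minus strand), from 142 to 16 bases before the start.
Adm: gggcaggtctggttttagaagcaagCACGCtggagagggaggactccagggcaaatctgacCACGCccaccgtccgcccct
Bnip3: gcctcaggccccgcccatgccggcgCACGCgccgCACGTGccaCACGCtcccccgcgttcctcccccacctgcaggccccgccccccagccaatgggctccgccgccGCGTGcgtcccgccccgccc
Adm holds 2 copies and Bnip3 holds 5, and a match is a description of letters, not of binding.

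Energy metabolism genes gave many more rises than falls in both arms. Of 17 glycolysis enzymes, 11 were higher (64.7%) and 1 was lower (5.88%) in OIR (median log2 fold change 0.47). In control 14 were higher and 1 lower (median 0.73). Pgk1, phosphoglycerate kinase, was at 173 and 159 CPM at P14 and 526, 529 and 659.8 CPM at P17, with a log2 fold change of 1.78 ± 0.16 (SE; edgeR adjusted p = 3.19e-07), with 1.63 in control. Gapdh rose from 1657 and 1988 CPM to 3896, 3987 and 4478 CPM (log2 fold change 1.18, adjusted p = 7.86e-05), with 1.55 in control. Processed copies of both genes lie elsewhere in the genome, so part of their reads may be assigned to those. Pfkp, the platelet-type phosphofructokinase, was the 1 enzyme that fell. Its level was 690.3 and 778 CPM at P14 and 387, 303 and 421 CPM at P17, with a log2 fold change of -0.99 ± 0.13 (SE; edgeR adjusted p = 1.3e-05), with -0.96 in control. Of 26 respiratory chain subunits 16 were higher (61.5%) and 1 lower (3.85%), with a median of 0.48, and in control 15 and 2. Cox7a2, a subunit of cytochrome oxidase, rose from 37.3 and 62.6 CPM to 129, 129 and 132 CPM (log2 fold change 1.38, adjusted p = 1.04e-05). Uqcrc2, a core subunit of the cytochrome bc1 complex, rose from 81.9 and 90.8 CPM to 164, 174 and 152 CPM (log2 fold change 0.92, adjusted p = 2.01e-05). Without OIR P14 replicate 2, 6 glycolysis enzymes were higher, and with the lens covariate 2 glycolysis enzymes and 3 respiratory subunits were. With the Y-linked covariate these counts were 8 and 14.

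Among 34 tip cell and sprouting genes 11 were higher (32.4%) and 7 lower (20.6%) at P17 in OIR, against 22.2% and 23.4% of all genes. Their median change in OIR was positive (median log2 fold change 0.19), and in control 1 was higher and 11 were lower (median -0.33). Of the 34, 10 had an unadjusted interaction p under 0.05, all toward OIR, which is 29.4% of the list against 4.81% of all genes. Angpt2, the ligand that loosens pericytes from capillaries, stood at 14.5 and 11.3 CPM at P14 and 43.3, 24.4 and 45.1 CPM at P17. Angpt2 had a log2 fold change of 1.55 ± 0.24 (SE; edgeR adjusted p = 7.79e-05). All P17 libraries were above both P14 libraries, while control retina held 7.08 and 6.62 CPM at P14 and 7.49, 8.59 and 6.404 CPM at P17. The Angpt2 interaction was 1.41 ± 0.33 (log2, SE), unadjusted p = 0.00051. Pgf, placental growth factor, a ligand of Flt1, stood at 2.96 and 2.86 CPM at P14 and 9.58, 8.13 and 16.9 CPM at P17. Pgf had a log2 fold change of 1.99 ± 0.30 (SE; edgeR adjusted p = 5.85e-05). In control Pgf was at 1.67 and 1.996 CPM at P14 and 1.96, 1.92 and 2.63 CPM at P17. The Pgf interaction was 1.76 ± 0.42 (log2, SE), unadjusted p = 0.000684. Igfbp3, which binds insulin-like growth factors, rose from 29.8 and 23.1 CPM to 48.4, 33.2 and 46.5 CPM (log2 fold change 0.69, adjusted p = 0.00268), with -0.37 in control; its adjusted p was 0.061 without OIR P14 replicate 2. Apln, the tip cell peptide apelin, was at 57.5 and 43.4 CPM at P14 and 108, 55.9 and 113 CPM at P17, and Esm1, a tip cell marker, at 4.05 and 2.43 CPM at P14 and 10.6, 5.24 and 13.3 CPM at P17. Both passed (adjusted p = 0.0101 and 0.0191), and both calls were lost without OIR P14 replicate 2 (adjusted p = 0.106 and 0.147). Control retina had Esm1 at 0.329 CPM or less in all 5 libraries. Notch1, a receptor that restrains tip cells, fell from 68.3 and 80.7 CPM to 43.4, 36.6 and 50.6 CPM (log2 fold change -0.78, adjusted p = 0.000774). Flt4, a receptor for Vegfc, fell from 17.4 and 14.6 CPM to 11.01, 9.75 and 11.5 CPM (log2 fold change -0.58, adjusted p = 0.00215). Both also fell in control (-1.05 and -0.49). With library totals 6 sprouting genes were called higher and 8 lower. The count of rises was 4 without OIR P14 replicate 2, 7 without OIR P17 replicate 1 or replicate 3, 3 with the lens covariate and 2 with the Y-linked covariate.

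Of 22 general endothelial markers, 6 were higher (27.3%, near the 22.2% of all genes) and 2 lower (9.09%) in OIR (median 0.13), and 3 were higher and 9 lower in control (median -0.37). Esam, an adhesion molecule of endothelial junctions, stood at 25.5 and 20.8 CPM at P14 and 45.3, 44.7 and 41.2 CPM at P17, with a log2 fold change of 0.92 ± 0.12 (SE; edgeR adjusted p = 1.36e-05). Clec14a, an endothelial lectin, rose from 8.87 and 6.23 CPM to 27.9, 20.3 and 14.7 CPM (log2 fold change 1.47, adjusted p = 7.98e-05). Both also rose in control (0.38 and 0.68). Sox17, an arterial transcription factor, did not pass in OIR (3.92 and 3.57 CPM at P14 and 3.604, 3.05 and 2.19 CPM at P17; a log2 fold change of -0.35 ± 0.21 (SE; edgeR adjusted p = 0.188)) but fell in control (-1.54), with an interaction of 1.19 ± 0.304 (log2, SE), unadjusted p = 0.00104. The barrier genes gave 6 rises (31.6%) and 3 falls of 19 in OIR, but 1 and 4 with library totals, and none of the rises was called without OIR P14 replicate 2 or with the lens covariate and 1 was with the Y-linked covariate. Among them Cldn5, the main claudin of retinal capillaries, rose from 87.7 and 82.8 CPM to 157, 132 and 100.1 CPM (log2 fold change 0.61, adjusted p = 0.0104), a call that was lost without the 2 OIR P17 libraries richest in lens counts (log2 fold change 0.26, adjusted p = 0.325). Plvap, a protein of leaky fenestrated vessels, was at 19.2 and 10.6 CPM at P14 and 11.8, 7.83 and 9.99 CPM at P17. Plvap did not pass, with a log2 fold change of -0.596 ± 0.24 (SE, edgeR adjusted p = 0.0566). It passed, as a fall, in 6 of 30 alternatives. Among them were library totals (-0.73, adjusted p = 0.0254), DESeq2 (-0.59, adjusted p = 0.0493) and the fit without OIR P17 replicate 1. Tjp1, a scaffold of tight junctions, fell in both arms (a log2 fold change of -0.61 ± 0.14 (SE; edgeR adjusted p = 0.00163); -0.78 in control). Of the general endothelial markers 3 were called higher without OIR P14 replicate 2, 0 with the lens covariate and 2 with the Y-linked covariate.

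Pericytes wrap capillaries, and their markers gave more rises than falls in OIR and more falls than rises in control. Of 15 pericyte and smooth muscle genes 7 were higher (46.7%) and 1 lower (6.67%) in OIR (median log2 fold change 0.66). In control 2 were higher and 9 lower (median -0.71). In the fit without a covariate 12 (80%) had an unadjusted interaction p under 0.05 toward OIR, against 4.81% of all genes. The OIR median was 1.22 with the lens covariate and -0.07 with the Y-linked covariate. Kcnj8, a potassium channel subunit of pericytes, was at 4.69 and 4.19 CPM at P14 and 16.1, 14.9 and 13.8 CPM at P17. Kcnj8 had a log2 fold change of 1.75 ± 0.18 (SE; edgeR adjusted p = 8.58e-07). Control retina held 8.22 and 7.18 CPM at P14 and 8.57, 8.73 and 9.14 CPM at P17, so the OIR level was below control at P14 and above it at P17 with no overlap at either age. Its interaction was 1.56 ± 0.24 (log2, SE), unadjusted p = 4.03e-06. Abcc9, whose product joins that channel and whose gene neighbours it (Kcnj8 at chr6:142564837-142571614 and Abcc9 at chr6:142587862-142702315, both on the minus strand), was at 10.1 and 11.7 CPM at P14 and 19.5, 15.7 and 16.6 CPM at P17 in OIR and at 19.1 and 19.3 CPM at P14 and 10.97, 13.5 and 11.3 CPM at P17 in control. Its rise in OIR passed (adjusted p = 0.0145) and was lost without OIR P14 replicate 1 (0.117) or OIR P17 replicate 1 (0.0511). Rgs5, a regulator of G-protein signalling in pericytes, was at 119 and 83.2 CPM at P14 and 271, 248 and 194 CPM at P17, with a log2 fold change of 1.23 ± 0.201 (SE; edgeR adjusted p = 0.000182), and it did not pass in control (-0.039). Pdgfrb, the receptor through which endothelium recruits pericytes, was at 33.8 and 35.2 CPM at P14 and 61.6, 46.4 and 43.2 CPM at P17, with a log2 fold change of 0.55 ± 0.14 (SE; edgeR adjusted p = 0.00446), and it fell in control (-0.52). Without the 2 OIR P17 libraries richest in lens counts its log2 fold change was 0.36 (adjusted p = 0.101), and with the lens covariate -0.07. Higd1b, a pericyte-enriched mitochondrial gene, rose from 1.99 and 2.01 CPM to 10.9, 6.91 and 7.98 CPM (log2 fold change 2.100, adjusted p = 2.06e-05). Higd1b also rose in control (0.95, adjusted p = 0.0146), and its OIR call was lost with the lens covariate (1.66, adjusted p = 0.102). Vtn, the adhesion protein vitronectin, which photoreceptors also express, rose in OIR and control alike (1.17 and 1.16). The count of rises was 4 without the 2 lens-rich libraries, 1 with the lens covariate and 4 with the Y-linked covariate.

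**Figure D3:**
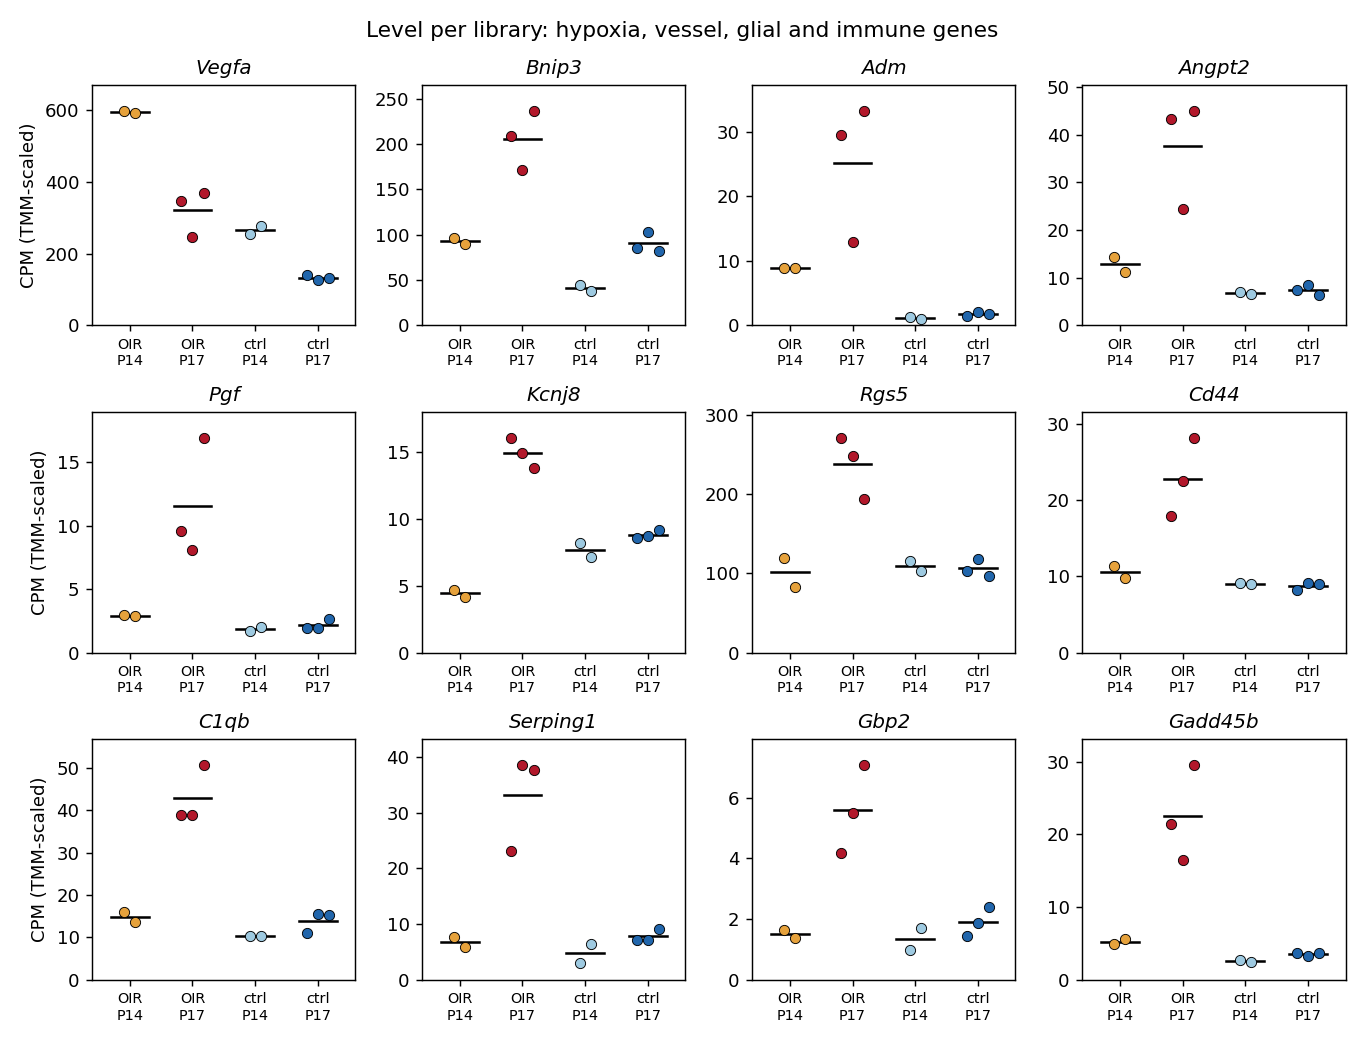
Each point is 1 library and each bar a group mean, in CPM scaled by TMM, for 12 genes in OIR and control retina at P14 and P17. Vegfa fell in both arms, whereas Angpt2, Pgf, Kcnj8, Rgs5, Cd44, C1qb, Serping1, Gbp2 and Gadd45b were higher in every OIR P17 library than in any of the other 3 groups.

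Glial reactivity genes gave many more rises than falls in OIR. Müller cells and astrocytes answer injury with intermediate filaments, growth factors and acute-phase proteins. Of 27 such genes 15 were higher (55.6%) and 2 lower (7.41%) at P17 (median log2 fold change 1.04). In control 1 was higher and 4 were lower (median -0.04). Fgf2, a growth factor that protects photoreceptors, was at 6.51 and 7.93 CPM at P14 and 12.7, 18.2 and 28.4 CPM at P17. Fgf2 had a log2 fold change of 1.45 ± 0.26 (SE; edgeR adjusted p = 0.000323). In control Fgf2 was at 2.04 and 2.43 CPM at P14 and 3.12, 1.92 and 2.35 CPM at P17. The Fgf2 interaction was 1.31 ± 0.38 (log2, SE), unadjusted p = 0.00353. Fgf2 overlaps an antisense gene, and with the strand setting unknown their reads cannot be told apart. Cd44, a hyaluronan receptor of Müller cell processes, was at 11.3 and 9.74 CPM at P14 and 17.9, 22.5 and 28.2 CPM at P17. Cd44 had a log2 fold change of 1.121 ± 0.18 (SE; edgeR adjusted p = 7.98e-05). In control Cd44 was at 9.09 and 9.05 CPM at P14 and 8.16, 9.11 and 8.97 CPM at P17. Cp, the ferroxidase ceruloplasmin, rose from 105 and 101 CPM to 183, 220.4 and 233 CPM (log2 fold change 1.04, adjusted p = 9.25e-07). Cp was the 1 member also called higher in control (0.48, adjusted p = 0.00136). Cebpd, an inflammatory transcription factor, rose from 11.4 and 11.4 CPM to 35.4, 37.2 and 96.6 CPM (log2 fold change 2.31, adjusted p = 0.00198). Serpina3n, a secreted protease inhibitor, was at 11.5 and 10.6 CPM at P14 and 31.95, 83.5 and 115 CPM at P17, with a log2 fold change of 2.801 ± 0.78 (SE; edgeR adjusted p = 0.0138); replicate 1 was the lowest of the P17 libraries, and the call was lost without either P14 library (adjusted p = 0.0782 and 0.0879). Gfap, the filament protein that marks reactive glia, was at 115 and 119 CPM at P14 and 157, 218 and 319 CPM at P17. Gfap had a log2 fold change of 0.98 ± 0.36 (SE; edgeR adjusted p = 0.0426). Its log2 fold change in control was 0.997, and its call was lost without either P14 library (adjusted p = 0.165 and 0.149) and without OIR P17 replicate 2 (0.061) or replicate 3 (0.124). Leaving out Control P17 replicate 2 or any Control P30 library, which enter only through the spread, also ended it (adjusted p from 0.052 to 0.0582). Edn2, an endothelin that stressed photoreceptors release, was at 8.27 and 8.75 CPM at P14 and 9.61, 15.9 and 30.7 CPM at P17 and did not pass, with a log2 fold change of 1.14 ± 0.45 (SE; edgeR adjusted p = 0.0566). It passed, as a rise, in 7 of 30 alternatives, among them limma-voom (adjusted p = 0.0487), the lens covariate (3.90, adjusted p = 0.0256), without OIR P17 replicate 1 (1.45, adjusted p = 0.00909) and without the 2 lens-rich libraries (1.88, adjusted p = 0.00362). In control it stood at 0.172 CPM or less at both ages. The list's count of rises was 7 without either P14 library, 18 without the 2 lens-rich P17 libraries, 9 with the lens covariate and 4 with the Y-linked covariate.

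Of 20 homeostatic Müller genes 12 rose (60%) and 2 fell (10%) in OIR, and 11 rose in control. Aqp4, the water channel of glial endfeet, was at 30.3 and 35.2 CPM at P14 and 57.7, 80.00 and 60.6 CPM at P17, with a log2 fold change of 1.01 ± 0.13 (SE; edgeR adjusted p = 1.47e-05), and at 66.7 and 55.4 CPM at P14 and 85.3, 90.1 and 87.9 CPM at P17 in control. Clu, the chaperone clusterin, rose from 475 and 492 CPM to 1402, 1626 and 1354 CPM (log2 fold change 1.595, adjusted p = 1.86e-06). Apoe, a lipid carrier, rose from 303 and 303 CPM to 694, 819.5 and 718 CPM (log2 fold change 1.297, adjusted p = 4.85e-05), with 1.15 and 0.67 in control. With the lens covariate 1 of the 20 genes was called higher, and Aqp4 (0.65, adjusted p = 0.157) and Apoe (1.25, adjusted p = 0.0799) were not. With the Y-linked covariate 11 were called higher.

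Microglia, the resident immune cells of the retina, and macrophages were represented by 25 genes. Of these 18 were higher (72%, against 22.2% of all genes) and 0 lower in OIR at P17 (median log2 fold change 1.18). In control 2 were higher and 1 lower (median 0.18). Of the 25, 13 (52%) had an unadjusted interaction p under 0.05, all toward OIR, against 4.81% of all genes. Apoe is counted in this list and in the Müller list. C1qb, a chain of the complement starter C1q, was at 15.98 and 13.7 CPM at P14 and 38.8, 38.9 and 50.6 CPM at P17. C1qb had a log2 fold change of 1.53 ± 0.22 (SE; edgeR adjusted p = 6.74e-05). In control C1qb was at 10.3 and 10.2 CPM at P14 and 11.1, 15.5 and 15.2 CPM at P17. Trem2, a lipid receptor of activated microglia, rose from 2.99 and 2.52 CPM to 6.18, 7.07 and 11.1 CPM (log2 fold change 1.56, adjusted p = 0.000259). Spp1, osteopontin, which ganglion cells also make, rose from 6.58 and 7.67 CPM to 12.2, 18.1 and 24.2 CPM (log2 fold change 1.35, adjusted p = 0.000177), with 0.92 in control. The count of rises was 12 without OIR P14 replicate 2, 17 without the 2 lens-rich libraries, 3 with the lens covariate and 10 with the Y-linked covariate.

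Complement genes had the highest median of the 28 lists plotted, 1.53. In OIR 11 of 15 were higher (73.3%, against 22.2% of all genes) and 0 lower, and in control 1 was higher and 2 were lower. C1s1 and C1ra, neighbours on chromosome 6 that encode the proteases of C1, rose together. C1s1 was at 1.26 and 1.16 CPM at P14 and 4.49, 3.51 and 3.74 CPM at P17. C1ra was at 1.23 and 0.764 CPM at P14 and 2.95, 3.79 and 2.66 CPM at P17. Their log2 fold changes were 1.69 (adjusted p = 0.000383) and 1.66 (adjusted p = 6.78e-05), and C1s1 fell in control (-0.92). In control C1s1 was at 1.67 and 3.97 CPM at P14 and 1.27, 1.43 and 1.8 CPM at P17, and the level in Control P14 replicate 1 lay within the P17 range. Both have a close copy beside them, so their reads may be split. Serping1, the inhibitor of these proteases, was at 7.71 and 5.97 CPM at P14 and 23.2, 38.6 and 37.7 CPM at P17. Serping1 had a log2 fold change of 2.28 ± 0.31 (SE; edgeR adjusted p = 5.34e-05). Cd59a, which blocks the membrane attack complex, was at 8.67 and 7.76 CPM at P14 and 26.9, 26.1 and 26.9 CPM at P17. Cd59a had a log2 fold change of 1.698 ± 0.14 (SE; edgeR adjusted p = 8.04e-08). It was the 1 complement gene that also rose in control (0.79, adjusted p = 0.000146). These 4 genes, of the start and the restraint of the pathway, were higher in every OIR P17 library than in either P14 library, as were 33.4% of all genes. With the lens covariate 2 of the 15 were called and with the Y-linked covariate 6. Among 17 chemokines and receptors 8 were higher (47.1%, against 22.2% of all genes) and 0 lower. In control 4 were higher and 0 lower. Ccl9, a macrophage chemokine, was at 1.83 and 1.47 CPM at P14 and 6.49, 6.95 and 6.68 CPM at P17, with a log2 fold change of 2.03 ± 0.21 (SE; edgeR adjusted p = 9.87e-07), and it also rose in control (0.997). Ackr3, a scavenging receptor for Cxcl12, rose from 6.25 and 4.59 CPM to 13.04, 13.1 and 12.9 CPM (log2 fold change 1.27, adjusted p = 0.000406), a call lost with the Y-linked covariate (0.78, adjusted p = 0.0863). The chemokine count was 4 with the lens covariate, 2 with the Y-linked covariate, 4 without OIR P14 replicate 2 and 5 without OIR P14 replicate 1 or OIR P17 replicate 1.

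Interferon response and antigen presentation genes formed the list with the largest share of rises outside lens genes and the ribosomal protein genes. Of 28 genes 21 rose (75%, against 22.2% of all genes) and 1 fell, with a median log2 fold change of 1.19. In control 7 were higher and 1 lower (median 0.51). Gbp2, an interferon-induced GTPase, was at 1.63 and 1.39 CPM at P14 and 4.18, 5.497 and 7.08 CPM at P17. Gbp2 had a log2 fold change of 1.89 ± 0.31 (SE; edgeR adjusted p = 9.91e-05). Ifit3, an antiviral protein, rose from 3.59 and 2.18 CPM to 8.95, 10.6 and 11.6 CPM (log2 fold change 1.86, adjusted p = 0.000166). H2-D1, a class I histocompatibility heavy chain whose reads may be shared with related genes, rose from 56.95 and 53.2 CPM to 102, 124 and 160.1 CPM (log2 fold change 1.22, adjusted p = 0.000492). Ifit3 and H2-D1 also rose in control (0.76 and 0.59, adjusted p = 0.0485 and 0.0435). Psmb8, a subunit of the immunoproteasome, rose from 2.23 and 2.52 CPM to 5.69, 8.01 and 8.25 CPM (log2 fold change 1.62, adjusted p = 0.00086), with 1.09 in control. Stat2, a transcription factor of the type I interferon pathway, was the 1 member that fell. Stat2 was at 46.8 and 51.5 CPM at P14 and 26.97, 33.3 and 29.7 CPM at P17, with a log2 fold change of -0.71 ± 0.14 (SE; edgeR adjusted p = 0.000708), and with -0.68 in control. Many calls rested on both P14 libraries: 9 genes were called higher without OIR P14 replicate 2, 18 without replicate 1, 17 without the 2 lens-rich P17 libraries, 4 with the lens covariate and 5 with the Y-linked covariate.

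The core of the interferon-stimulated response element, GAAA repeated after any 2 bases and searched on both strands, was in the 250 upstream bases of 9 of the 23 list members with a RefSeq window, against 3.46% of all 27025 symbols. Of the 9 genes, 7 rose and 1 fell, and of the 14 without the letters 11 were higher and 0 lower. Upstream stretches are shown for 6 of the 9, to set genes that rose (Ifit1, Ifit3, Isg15, B2m, Bst2) beside Stat2, which fell; Ifit1, Isg15, B2m and Bst2 were chosen after their values were seen. They are given 5′ to 3′ on the gene's strand, with the letters on either strand in capitals: Ifit1 at chr19:34640760-34640828 (plus), Ifit3 at chr19:34583348-34583431 (plus), Isg15 at chr4:156200860-156200921 (minus), B2m at chr2:122147523-122147572 (plus), Bst2 at chr8:71537572-71537627 (minus) and Stat2 at chr10:128270251-128270300 (plus).
Ifit1: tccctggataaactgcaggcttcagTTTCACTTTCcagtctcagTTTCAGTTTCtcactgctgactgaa
Ifit3: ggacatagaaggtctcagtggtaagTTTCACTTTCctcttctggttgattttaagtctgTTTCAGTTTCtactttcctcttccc
Isg15: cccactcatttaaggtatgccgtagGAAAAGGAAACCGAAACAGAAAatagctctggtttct
B2m: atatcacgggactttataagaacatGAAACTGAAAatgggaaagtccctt
Bst2: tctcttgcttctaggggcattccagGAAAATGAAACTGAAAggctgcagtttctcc
Stat2: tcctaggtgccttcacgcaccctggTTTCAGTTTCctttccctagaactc
Isg15 has 3 overlapping matches, Ifit1, Ifit3 and Bst2 have 2 each, and B2m and Stat2 have 1. Ifit1 stood at 0.897 and 0.311 CPM at P14 and 2.37, 3.07 and 4.49 CPM at P17, Isg15 at 1.06 and 0.538 CPM at P14 and 2.29, 2.702 and 3.65 CPM at P17, B2m, the light chain of class I molecules, at 21.4 and 18.96 CPM at P14 and 37.3, 48.9 and 57.6 CPM at P17, and Bst2, the antiviral protein tetherin, at 2.82 and 2.01 CPM at P14 and 9.15, 13.3 and 13.9 CPM at P17. All 4 passed (adjusted p = 0.00867, 0.00739, 0.00602 and 0.0102), and none of the 4 calls held without OIR P14 replicate 2.

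Immediate early genes, which neurons and glia switch on within minutes of a stimulus, gave 14 rises (53.8%) and 1 fall (3.85%) among 26 in OIR. Of all genes 22.2% rose and 23.4% fell. The list's median log2 fold change was 0.45, and in control 5 rose and 2 fell (median -0.10). Arc, a synaptic immediate early gene, was at 1.93 and 1.104 CPM at P14 and 13.99, 6.01 and 5.71 CPM at P17. Arc had a log2 fold change of 2.502 ± 0.39 (SE; edgeR adjusted p = 8.92e-05). In control Arc was at 1.51 and 1.49 CPM at P14 and 1.29, 1.66 and 2.35 CPM at P17. Atf3, a stress-induced transcription factor, rose from 3.82 and 3.68 CPM to 12.04, 9.47 and 18.9 CPM (log2 fold change 1.84, adjusted p = 1.63e-05). Fos rose from 36.6 and 38.9 CPM to 109, 54.02 and 87.6 CPM (log2 fold change 1.15, adjusted p = 0.00274). The call of Fos was lost when the 5 OIR libraries of P14 and P17 were fitted alone (adjusted p = 0.0737). Both also rose in control (0.74 and 0.85). Gadd45b, a stress sensor listed among senescence and p53 genes, was at 4.85 and 5.66 CPM at P14 and 21.4, 16.5 and 29.5 CPM at P17. Gadd45b had a log2 fold change of 2.09 ± 0.26 (SE; edgeR adjusted p = 1.09e-05). In control Gadd45b was at 2.69 and 2.4 CPM at P14 and 3.72, 3.24 and 3.64 CPM at P17. Of the senescence and p53 genes 34.6% were higher and 11.5% lower in OIR, against 22.2% and 23.4% of all genes. That list gave 9 rises and 3 falls of 26, and 4 rises without OIR P14 replicate 2, 1 with the lens covariate and 3 with the Y-linked covariate. Cdkn1a, a cell cycle inhibitor, was at 26.3 and 23.3 CPM at P14 and 31.2, 18.3 and 31.8 CPM at P17 and did not pass, with a log2 fold change of 0.13 ± 0.23 (SE; edgeR adjusted p = 0.684), nor did Cdkn2a, which was at 0.658 CPM or less. The immediate early count was 8 without either P14 library, 9 without OIR P17 replicate 1, 3 with the lens covariate and 7 with the Y-linked covariate.

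Few cell division genes moved, 2 up and 2 down of 30, a share of 6.67% in each direction against 22.2% and 23.4% of all genes. The lens covariate left 1 higher and 0 lower, and the Y-linked covariate 1 higher and 2 lower. Pcna, a clamp for DNA synthesis and repair, rose from 49.3 and 52.00 CPM to 74.5, 115 and 111 CPM (log2 fold change 0.98, adjusted p = 0.00019). Ccna2, cyclin A2, fell from 20.9 and 19.1 CPM to 8.38, 7.298 and 8.28 CPM (log2 fold change -1.33, adjusted p = 0.000639), with control changes of 1.09 and -1.88. Mki67 was at 5.85 and 5.15 CPM at P14 and 5.32, 3.05 and 3.27 CPM at P17 and Top2a at 9.004 and 5.095 CPM at P14 and 8.47, 6.14 and 5.05 CPM at P17, and neither passed (adjusted p = 0.226 and 0.821). In control the same 2 proliferation markers stood below their OIR levels at both ages, Mki67 at 1.67 and 2.15 CPM at P14 and 0.697, 0.487 and 1.14 CPM at P17 and Top2a at 1.096 and 1.74 CPM at P14 and 1.37, 1.17 and 1.87 CPM at P17. Unfolded protein and amino acid stress genes gave 13 rises and 0 falls of 22 (7 rises without OIR P14 replicate 2), among them Asns, asparagine synthetase (0.87), and Xbp1, a regulator of the secretory pathway (0.604), with control changes of 0.64 and 0.54. The 13 rises were 59.1% of the 22, against 22.2% of all genes. With the lens covariate none of the 22 was called higher, Asns and Xbp1 included (adjusted p = 0.104 and 0.079), and with the Y-linked covariate 9 were. Heat shock chaperones gave 7 rises (46.7%) and 0 falls of 15, Hspa8 with 0.92 in OIR and 1.04 in control. The count was 2 with the lens covariate and 4 with the Y-linked covariate. Cholesterol synthesis genes went both ways, 8 up (36.4%) and 4 down (18.2%) of 22 (2 and 6 with library totals), with examples in each direction. Msmo1 had a log2 fold change of 0.61 ± 0.100 (SE; edgeR adjusted p = 0.000117) in OIR and 0.61 in control. Lss had a log2 fold change of -0.65 ± 0.089 (SE; edgeR adjusted p = 1.88e-05) in OIR and -0.41 in control. Of the cholesterol genes 0 were higher and 1 lower in the lens fit, while the Y-linked fit called 4 higher and 2 lower.

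Matrix genes gave few calls in OIR and many falls in control. Of 30 genes 4 were higher and 4 lower in OIR (13.3% each, median 0.02), and 3 and 5 with library totals. In control 1 was higher and 15 were lower (median -0.70). Toward OIR 9 had an unadjusted interaction p under 0.05 (30%, against 4.81% of all genes). Away from OIR 1 did (3.33%, against 3.72% of all genes). Sparc, a matricellular protein, was at 791 and 613 CPM at P14 and 1263, 1219 and 1181 CPM at P17, with a log2 fold change of 0.798 ± 0.14 (SE; edgeR adjusted p = 0.000254), and rose less in control (0.38; interaction 0.42 ± 0.197 (log2, SE), unadjusted p = 0.0497). Col6a1, a chain of collagen VI, was at 126 and 109 CPM at P14 and 25.1, 20.8 and 21.9 CPM at P17 in OIR, with a log2 fold change of -2.38 ± 0.27 (SE; edgeR adjusted p = 1.68e-05), with -2.27 in control. Lama2, a laminin chain of mural basement membrane, rose from 2.19 and 2.29 CPM to 10.4, 10.6 and 4.83 CPM (log2 fold change 1.94, adjusted p = 0.00387), a call lost without the 2 lens-rich libraries (adjusted p = 0.107). No matrix gene was called in either direction with the lens covariate, and 0 were called higher and 8 lower with the Y-linked one. Among 18 proteases and inhibitors 6 rose (3 without OIR P14 replicate 2) and 1 fell; Plat, tissue plasminogen activator, was at 34.1 and 28.96 CPM at P14 and 47.2, 46.3 and 59.9 CPM at P17, with a log2 fold change of 0.698 ± 0.14 (SE; edgeR adjusted p = 0.00069), and Serpine2, an inhibitor of such proteases, rose from 25.9 and 21.4 CPM to 44.8, 35.9 and 39.2 CPM (log2 fold change 0.76, adjusted p = 0.000313), while neither passed in control (-0.025 and 0.074). The shares of the proteases and inhibitors were 33.3% higher and 5.56% lower, against 22.2% and 23.4% of all genes. Of this list 3 were called higher with the lens covariate and 1 with the Y-linked covariate.

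Markers of inner retinal neurons showed more falls than rises. Of 20 bipolar cell markers 9 fell (45%) and 3 rose (15%) in OIR (median log2 fold change -0.23), against 23.4% and 22.2% of all genes. In control 5 fell and 5 rose (median 0.03). Grm6, the glutamate receptor of ON bipolar cells, was at 362 and 380.4 CPM at P14 and 102, 96.3 and 113 CPM at P17. Grm6 had a log2 fold change of -1.84 ± 0.14 (SE; edgeR adjusted p = 3.82e-08), with -1.46 in control. Isl1, a transcription factor of ON bipolar, cholinergic amacrine and ganglion cells, was at 128 and 142 CPM at P14 and 94.4, 92.8 and 83.2 CPM at P17. Isl1 had a log2 fold change of -0.58 ± 0.095 (SE; edgeR adjusted p = 0.000109). In control Isl1 was at 137 and 136 CPM at P14 and 124, 130.2 and 134 CPM at P17. The Isl1 interaction was -0.51 ± 0.14 (log2, SE), unadjusted p = 0.00157. Of 26 amacrine and horizontal cell markers 12 fell (46.2%) and 6 rose (23.1%, near the 22.2% of all genes), and in control 9 and 7. Slc6a9, the glycine transporter of amacrine cells, was at 256 and 255 CPM at P14 and 156, 175 and 161 CPM at P17. Slc6a9 had a log2 fold change of -0.64 ± 0.11 (SE; edgeR adjusted p = 0.000243). In control Slc6a9 was at 274 and 262 CPM at P14 and 257, 296 and 260.3 CPM at P17. The Slc6a9 interaction was -0.66 ± 0.16 (log2, SE), unadjusted p = 0.000805. Lhx1 and Onecut1, transcription factors of horizontal cells, were lower in all 3 P17 libraries. Lhx1 stood at 15.4 and 16.5 CPM at P14 and 9.87, 7.44 and 6.88 CPM at P17, and its interaction was -0.72 ± 0.204 (log2, SE), unadjusted p = 0.00241. Onecut1 stood at 2.86 and 4.104 CPM at P14 and 1.17, 0.762 and 0.857 CPM at P17, and its interaction was -1.08 ± 0.39 (log2, SE), unadjusted p = 0.0134. Tfap2a and Tfap2b, which specify amacrine and horizontal cells, fell in both arms (-1.102 and -0.86 in OIR, -0.88 and -0.64 in control). Penk, the precursor of enkephalin, went the other way, and was at 10.2 and 7.73 CPM at P14 and 29.2, 34.3 and 33.1 CPM at P17. Its log2 fold change was 1.85 ± 0.28 (SE, edgeR adjusted p = 0.000159), and it also rose in control (1.11, adjusted p = 0.00566). Falls of bipolar markers numbered 8 to 10 when any 1 OIR library was left out, 4 with the lens covariate and 8 with the Y-linked covariate, and falls of amacrine and horizontal markers 8 to 11, 6 and 8.

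Ganglion cell markers gave 5 falls and 2 rises of 20, and the 25% that fell is near the 23.4% of all genes. Among them was Nefm, a neurofilament subunit, at 239.7 and 219.7 CPM at P14 and 157, 156 and 145 CPM at P17 (a log2 fold change of -0.59 ± 0.089 (SE; edgeR adjusted p = 5.24e-05); -0.23 in control). Without OIR P14 replicate 1, OIR P17 replicate 2 or OIR P17 replicate 3 the falls numbered 2, and without OIR P17 replicate 1 they numbered 3. The falls numbered 3 with the lens covariate and 1 with the Y-linked covariate. Synaptic genes gave 14 falls (41.2%) and 4 rises (11.8%) of 34 (11 and 2 in control). Cacna1f, the calcium channel of photoreceptor and bipolar ribbon synapses, was at 426 and 486 CPM at P14 and 123, 131 and 136 CPM at P17. Cacna1f had a log2 fold change of -1.81 ± 0.11 (SE; edgeR adjusted p = 7.56e-09). Syn1, a synaptic vesicle protein, and Gria2, a subunit of AMPA receptors, had log2 fold changes of -0.68 and -1.32. The control changes were -1.65 (Cacna1f), -0.45 (Syn1) and -1.35 (Gria2). Immature neuron genes gave 11 falls (44%) and 3 rises (12%) of 25. Dcx, the microtubule protein doublecortin, was at 11.5 and 13.1 CPM at P14 and 4.21, 3.63 and 3.25 CPM at P17. Dcx had a log2 fold change of -1.74 ± 0.18 (SE; edgeR adjusted p = 9.57e-07), and Sox4, a factor of neuronal differentiation, fell from 62.3 and 53.9 CPM to 35.4, 28.9 and 27.7 CPM (log2 fold change -0.92, adjusted p = 0.00021); both also fell in control (-1.35 and -0.66). Without the 2 lens-rich libraries the falls of synaptic and of immature neuron genes numbered 8 and 6, and without OIR P14 replicate 2 they numbered 8 and 7. The lens fit left 3 and 4 of these falls and the Y-linked fit 8 and 6.

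**Figure D4:**
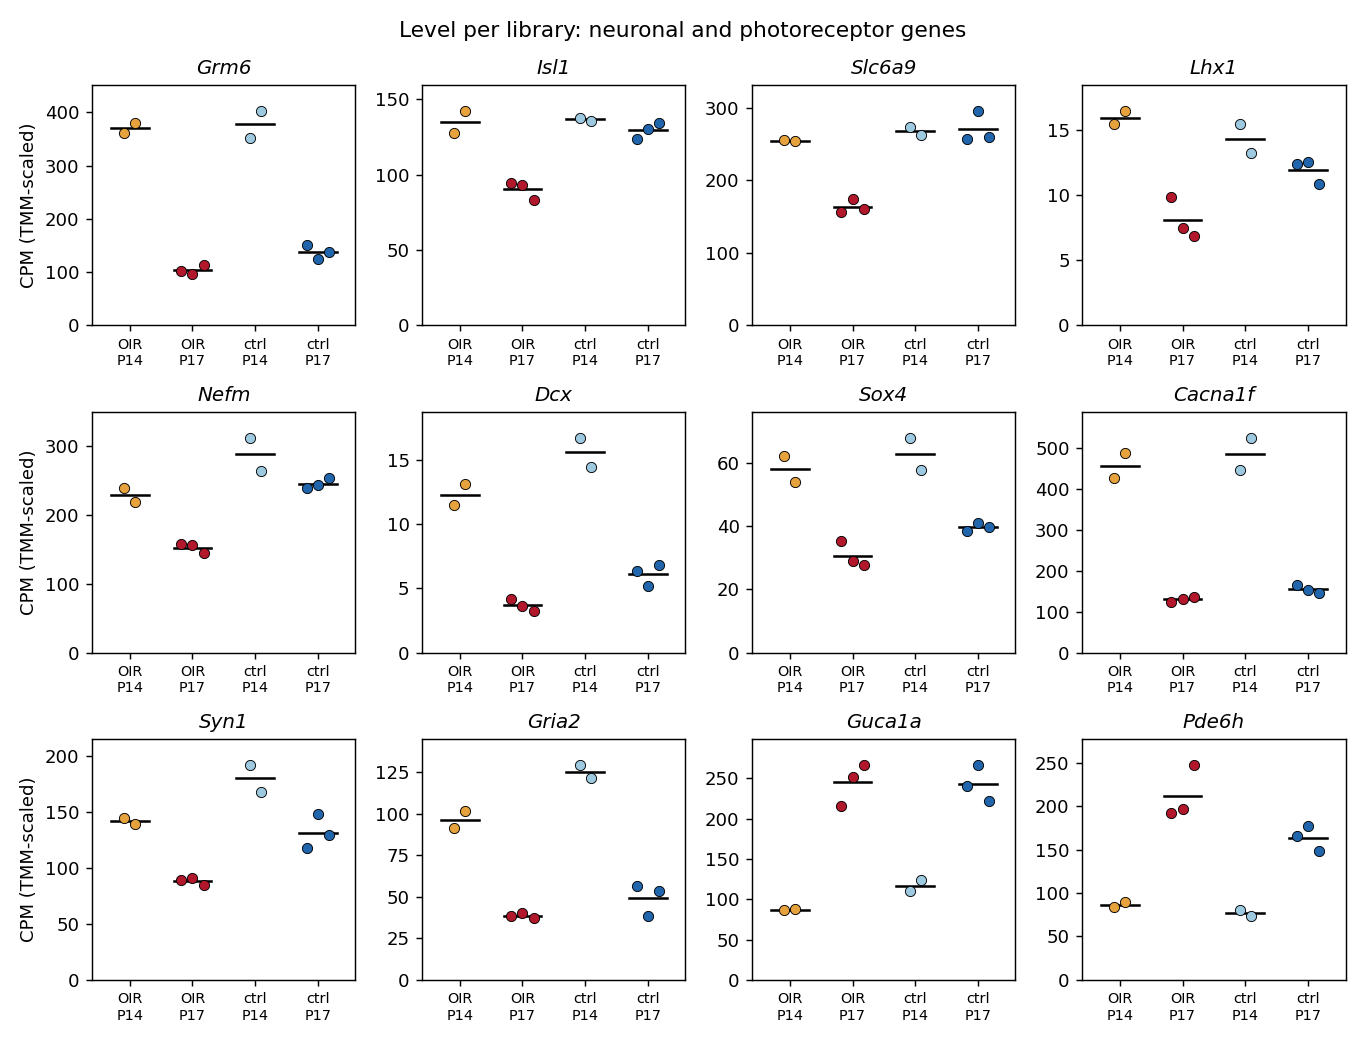
Each point is 1 library and each bar a group mean, in CPM scaled by TMM, for 12 neuronal and photoreceptor genes. Isl1 and Slc6a9 are lower in the 3 OIR P17 libraries than in any other library shown, Grm6, Dcx, Cacna1f and Gria2 fall with age in both arms, and Guca1a and Pde6h rise in both.

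Photoreceptor genes gave more rises than falls in both arms. Of 28 rod genes 12 were higher (42.9%) and 3 lower (10.7%) in OIR, and 11 and 2 in control. Of 15 cone genes 7 were higher (46.7%) and 1 lower (6.67%) in OIR, and 6 and 0 in control. Without either P14 library 6 rod genes were called higher. The lens covariate left 3 rod and 1 cone genes called higher, and the Y-linked covariate 11 and 6. Guca1a, a calcium sensor of phototransduction, was at 86.6 and 87.9 CPM at P14 and 216, 252 and 267 CPM at P17. Guca1a had a log2 fold change of 1.49 ± 0.15 (SE; edgeR adjusted p = 7.12e-07), and Pde6h, the cone phosphodiesterase inhibitor, rose from 83.4 and 89.5 CPM to 192, 197 and 248 CPM (log2 fold change 1.296, adjusted p = 1.69e-06). Opn1sw, the short-wave cone opsin, rose from 328 and 324 CPM to 445, 500.2 and 526 CPM (log2 fold change 0.59, adjusted p = 0.00244). The control changes of these 3 genes were 1.05, 1.09 and 0.504. Of 17 clock genes 6 fell and 3 rose (0 rose without OIR P14 replicate 2, and 0 fell with the lens and 4 with the Y-linked covariate). The shares of the clock genes were 35.3% lower and 17.6% higher, against 23.4% and 22.2% of all genes. Per1 and Per3, repressors of the clock, fell in OIR (-0.82 and -1.17) and in control (-0.896 and -1.002). The hour of tissue collection is not given in the sources used here. Of 9 thyroid hormone genes 2 rose (22.2%, the share of all genes) and 3 fell (33.3%, against 23.4%). With either covariate 0 rose and 1 fell. Dio3, which inactivates the hormone, was at 2.76 and 0.764 CPM at P14 and 8.35, 9.98 and 9.45 CPM at P17, with a log2 fold change of 2.42 ± 0.49 (SE; edgeR adjusted p = 0.00143), and Hr, the corepressor hairless, at 247 and 227 CPM at P14 and 107, 86.4 and 98.8 CPM at P17, with a log2 fold change of -1.29 ± 0.11 (SE; edgeR adjusted p = 1.83e-07), with control changes of 2.12 and -0.88.

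Of the 9065 genes called in OIR, 11 were called in the opposite direction in control, where 10 rose in OIR and fell in control and 1 did the reverse. The 10 were Abcc9, Aoc3, C1s1, Ddx3x, Gm15983, Msn, Npas4, Olfr558, Pdgfrb and Procr, and the reverse held for Zdhhc22; all 11 are named after their values were seen, apart from Abcc9, C1s1 and Pdgfrb. Aoc3, a vascular adhesion protein of smooth muscle, was at 5.88 and 4.61 CPM at P14 and 11.04, 9.24 and 9.404 CPM at P17 in OIR and at 5.17 and 6.49 CPM at P14 and 3.15, 4.24 and 3.36 CPM at P17 in control. Procr, the endothelial receptor of protein C, was at 1.56 and 1.5 CPM at P14 and 2.86, 2.102 and 3.16 CPM at P17 and at 0.679 and 1.24 CPM at P14 and 0.439, 0.458 and 0.346 CPM at P17 in control. Msn, moesin, which links membranes to actin, was at 66.5 and 51.8 CPM at P14 and 77.3, 70.8 and 86.9 CPM at P17 in OIR and at 29.7 and 34.6 CPM at P14 and 26.3, 25.3 and 25.96 CPM at P17 in control. Npas4, a neuronal immediate early gene, was at 1.83 and 2.92 CPM at P14 and 7.09, 3.58 and 3.18 CPM at P17, and its call was lost in 8 of 30 alternatives, among them without OIR P14 replicate 1 (adjusted p = 0.197) or OIR P17 replicate 1 (adjusted p = 0.13). Ddx3x, an RNA helicase gene on the X chromosome that escapes inactivation, was at 146 and 144 CPM at P14 and 218, 192 and 178 CPM at P17, and its log2 fold change with the Y-linked covariate was -0.012. Zdhhc22, a palmitoyltransferase gene, was at 16.9 and 19.1 CPM at P14 and 14.2, 15.4 and 13.98 CPM at P17 in OIR and at 17.2 and 15.99 CPM at P14 and 20.4, 24.1 and 19.9 CPM at P17 in control. The Zdhhc22 call in OIR was lost in 21 of 30 alternatives, each OIR P14 or P17 library left out included (adjusted p from 0.0606 to 0.323). The Procr call was lost in 11, among them library totals, the replicate block (adjusted p = 0.0763) and either P14 library left out. Those of Msn and Aoc3 were lost with both covariates and without OIR P14 replicate 2 (adjusted p = 0.168 and 0.0578), and that of Ddx3x with library totals and without either P14 library (adjusted p = 0.119 and 0.126). Olfr558 was at 0.458 CPM or less in every library of the 2 ages. For none of the 11 did the interaction pass after adjustment over all genes.

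**Figure D5:**
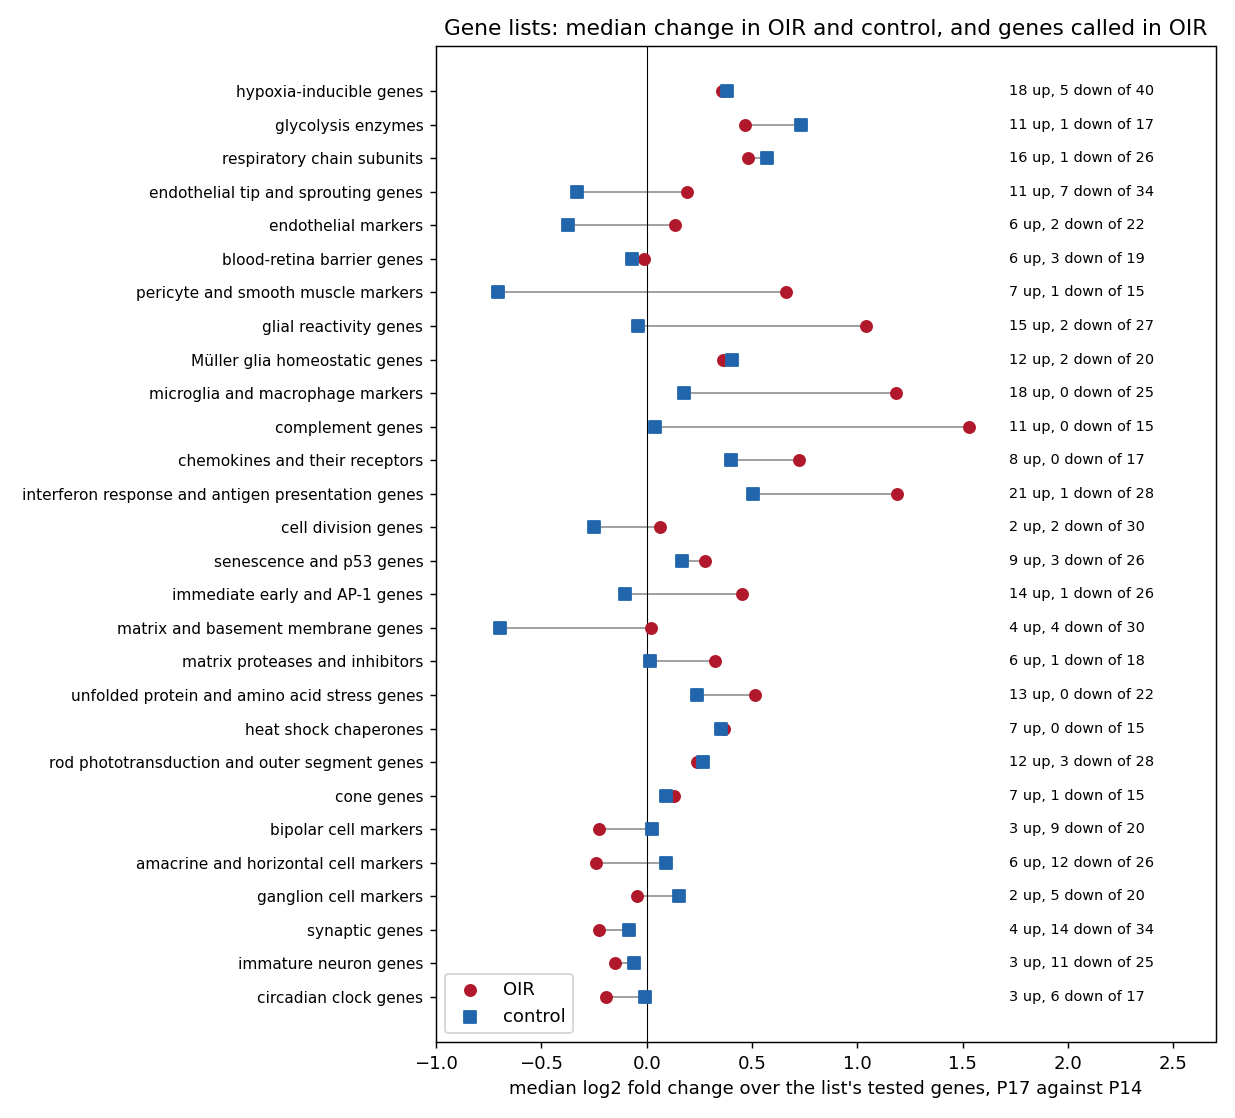
For 28 gene lists, circles give the median log2 fold change from P14 to P17 over the tested genes in OIR and squares the same in control, with the number of genes called higher and lower in OIR at the right. Pericyte, complement, glial reactivity, microglial and matrix lists show the widest gaps between arms, and hypoxia-inducible, Müller, heat shock and rod lists nearly none.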

How the data were processed

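Whole-retina RNA was measured in 16 libraries. Per the labels' protocols and the submitters' processing notes, mRNA selected on beads was sequenced on an Ion Proton and processed with Torrent Suite 5.4.0, with alignment to mm10 by STAR and then Bowtie2 and counting per gene with HTSeq. Aligner versions, annotation release and strand setting were not given in the sources used here. Raw counts per gene were deposited by the authors for 43280 symbols, with no normalization. A longer transcript collects more counts, so levels are compared only within a gene.

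Genes were kept by filterByExpr (minimum count 10, minimum total 15), scaled by TMM and fitted over all 16 libraries (6 groups, 10 residual degrees of freedom) with the robust quasi-likelihood test of edgeR 4.0.16 in R 4.3.3, with Benjamini-Hochberg adjustment over 19905 genes. The SE was derived from the F statistic, whose root is the log2 fold change in SE units. DESeq2 1.42.0, limma-voom (limma 3.58.1), other scalings and filters, 2 covariates and left-out libraries were alternatives; the steps were tested on simulated data. Gene positions come from GENCODE M21 and promoter sequences from RefSeq (GRCm38.p6).

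The lists and members were chosen with earlier results of these data known. Named genes are a fixed set, the 15 largest called rises and 15 largest falls, and up to 6 genes of smallest p per list. The rises and falls needed a mean log2 CPM of at least 1, groups apart and a place outside the non-retinal lists. They also had to keep sign and 0.5 of the size under the lens covariate. A further rule for genes called for the difference from control named none, because none passed. The text names some of these and says where a gene falls outside. Some genes that the rule names are not reported here. Replicates were not duplicates of one library, and replicate numbers were not treated as pairs. A count of 0 is read as up to 3 counts.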

Additional observations from a re-analysis of the deposited data

How the results depend on the processing

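Of 126 genes the text draws on, 38 kept direction and side of the threshold under every alternative they were run in; 249 of 3776 gene by alternative values were no longer called, 15 were newly called and 9 changed sign. The lens covariate alone ended the call of 68 genes, the 1.5-fold test 38, the Y-linked covariate 34, and leaving out OIR P14 replicate 2 or replicate 1 ended 19 and 12. The sign changes were Cldn5 (-0.23) and Pdgfrb (-0.069) with the lens covariate, Cdkn1a with the lens (-0.017) and Y-linked (-0.031) covariates and without OIR P17 replicate 3 (-0.0028 to 0.37 on leaving out 1 library), Ddx3x (-0.012) with the Y-linked covariate, Top2a without OIR P14 replicate 1 (0.36) or OIR P17 replicate 3 (0.052; -0.45 to 0.36), and Krt12 without OIR P14 replicate 1 (0.76; -8.38 to 0.76). Genes higher in OIR at P17 numbered 2828 at an adjusted p under 0.01, 916 in a test against a 1.5-fold change, 512 with the lens and 2336 with the Y-linked covariate; genes lower numbered 1533 in the 1.5-fold test, 773 and 2766 with the 2 covariates and 2830 without the 2 lens-rich OIR P17 libraries. Leaving out 1 library gave 2927 to 5087 higher and 3424 to 4840 lower. Leaving the lens genes out of the table, chosen after seeing the data, gave 4628 and 4417.

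Genes with a more positive change in OIR than in control numbered 0 in the model used, 449 with no count filter, 125 with DESeq2, 6 with the 4 groups fitted alone, 4 with the lens and 1 with the Y-linked covariate, 4 without the 2 lens-rich libraries, and 0 to 42 on leaving out 1 library, with 42 without Control P14 replicate 1 and 19 without OIR P30 replicate 3. Genes with a more negative change numbered 0, 121 with no count filter, 52 with DESeq2, and 0 to 15 on leaving out 1 library, with 15 without OIR P14 replicate 2. The cause of these differences was not tested.

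With the replicate number as a block, 4025 genes were higher and 4228 lower. P14 and P17 share 2 numbers, and the deviations of same-numbered OIR libraries correlated at 0.070 (control -0.14), so the libraries share only a number. The P14 group holds 2 libraries, so leaving out 1 leaves a lone library that is assumed to vary like the other groups.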

Other observations

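Lists of cells at the margin of the retina and its nerve are short, so each count in OIR retina from P14 to P17 rests on few genes. The shares called higher and lower were 30% and 20% (astrocyte) and 11.1% and 44.4% (myelin). They were 33.3% and 0% (red blood cell) and 8.33% and 16.7% (skeletal muscle), against 22.2% and 23.4% of all genes. Of 10 astrocyte markers 3 were higher and 2 lower. Pax2, a transcription factor of optic nerve astrocytes, was at 2.96 and 2.52 CPM at P14 and 0.915, 0.67 and 0.902 CPM at P17. Its log2 fold change was -1.72 ± 0.298 (SE, edgeR adjusted p = 0.000185), and it also fell in control (-1.36, adjusted p = 0.0021). Of 9 myelin and oligodendrocyte genes, which the mouse retina normally lacks, 4 were lower and 1 higher, and 0 were called lower without OIR P14 replicate 1. None of 15 pigment epithelium and choroid genes passed in the edgeR test in either direction, nor did any at an unadjusted p under 0.05. Of 6 red blood cell genes 2 were higher; Hbb-bs, a beta globin gene with a near-identical neighbour, was at 69.7 and 27.9 CPM at P14 and 791, 233 and 336 CPM at P17 in OIR and at 15.5 and 28.9 CPM at P14 and 118, 159.5 and 97.03 CPM at P17 in control. Of 12 skeletal muscle genes 1 was higher and 2 were lower.

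The OIR and control libraries of P30 entered the model only for its spread, and their levels are given as values. Angpt2 was at 4.24, 4.97 and 4.41 CPM at P30, below every OIR library of P14 and P17. Vegfa was at 197, 161 and 126 CPM in OIR and at 148, 134 and 158 CPM in control at P30. Kcnj8 was at 5.34, 3.64 and 5.72 CPM in OIR and at 5.66, 4.78 and 5.59 CPM in control. Serping1 was at 26.3, 34.9 and 40.01 CPM in OIR against 19.2, 14.9 and 18.3 CPM in control, and Edn2 was at 16.8, 15.8 and 24.8 CPM in OIR against 5.10, 5.27 and 2.45 CPM in control. Slc6a9 was at 344, 353 and 441 CPM in OIR and at 410.0, 362 and 344 CPM in control at P30, above its 3 OIR P17 libraries in all 6.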
